A study of Mus musculus with 2 samples.

Results

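Isl1 binding at 7 basic helix-loop-helix (bHLH) transcription factor genes was examined: the Hand genes Hand1 and Hand2, the Twist genes Twist1 and Twist2, the Mesp genes Mesp1 and Mesp2, and Tcf21. The genes were chosen by name, and their peaks are the rows of the deposited peak list that carry exactly these symbols. They held 20 of 48295 peaks and 5 of the 12972 gene symbols in the list. The study mapped Isl1 binding in the early heart field by chromatin immunoprecipitation and sequencing (ChIP-Seq). Cardiogenic mesoderm and heart regions of C57BL/6 mouse embryos at E8.25-E9, with 60 to 80 embryos pooled, were precipitated with an antibody against Isl1, and a matching input without antibody forms the other of the 2 samples. The values analysed here are the peaks of the single ChIP sample. They come as 1 list with no values per replicate, and neither the number of reads nor the height of a peak is known. Each row gives a position in mm9, the signed distance from the midpoint of the peak to the closest transcription start site (TSS), and the gene of that TSS. Which cells of the pooled tissue carried the binding cannot be told apart, and a gene that is missing from the list had no peak at the threshold used, which does not show that Isl1 is absent there.

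Proteins of the bHLH class bind DNA as dimers at short E-box motifs, usually with a ubiquitous E protein as the partner, and Id proteins, which lack the DNA-binding region, block them by taking up that partner. Mesp1 marks the earliest mesoderm that gives rise to the heart, and Mesp2 acts in the segmentation of somites. Hand2 is needed in the second heart field and right ventricle, where Isl1 is also required, and Hand1 in the left ventricle and outflow tract. Twist1 acts in neural crest and in cells of the endocardial cushions, Twist2 in dermis and other mesenchyme, and Tcf21 in the epicardium and the muscle progenitors of the pharyngeal arches.

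The sequence under the peaks separated the single peak listed for Hand2 from the 19 of the other 4 genes with a peak. This difference is one of that peak and not of the Hand2 locus. The 18 peaks around Hand2 that were listed under noncoding RNAs, described below, did not share its sequence. The stretches that carry the difference are shown first, all read from the plus strand of mm9. The Hand2 peak covers the start of the coding sequence. Its first 300 coding bases, with the start codon in capitals, are a GC-rich stretch in which 73.0% of the bases are G or C. The stretches of the closest peaks of Tcf21, Hand1 and Twist1 show the longest uninterrupted run of purines (A or G) or pyrimidines (C or T) in capitals, with 25 bases to either side, and for Twist2 the peak with the shortest run of all 19 is shown.
Hand2, chr8:59800704-59801003: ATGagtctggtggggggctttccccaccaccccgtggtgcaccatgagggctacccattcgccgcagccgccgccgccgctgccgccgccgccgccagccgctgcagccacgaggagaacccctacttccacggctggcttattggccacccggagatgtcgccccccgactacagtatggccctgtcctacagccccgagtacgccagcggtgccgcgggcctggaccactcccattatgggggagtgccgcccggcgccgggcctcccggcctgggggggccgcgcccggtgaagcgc
Tcf21, chr10:22533976-22534080: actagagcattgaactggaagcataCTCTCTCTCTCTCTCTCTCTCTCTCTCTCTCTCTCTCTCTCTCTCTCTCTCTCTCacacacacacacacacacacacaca
Hand1, chr11:57694015-57694157: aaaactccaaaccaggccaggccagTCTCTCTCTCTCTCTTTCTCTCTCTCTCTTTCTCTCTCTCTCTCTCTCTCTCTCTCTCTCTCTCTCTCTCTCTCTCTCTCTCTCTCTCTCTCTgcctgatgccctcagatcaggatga
Twist1, chr12:34915444-34915554: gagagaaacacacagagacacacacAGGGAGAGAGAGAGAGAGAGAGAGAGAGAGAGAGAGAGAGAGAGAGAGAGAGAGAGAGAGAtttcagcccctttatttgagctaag
Twist2, chr1:93874061-93874142: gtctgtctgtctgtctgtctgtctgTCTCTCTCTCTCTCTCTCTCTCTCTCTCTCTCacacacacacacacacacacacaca
The capitals span 55 bases in Tcf21, 93 in Hand1, 61 in Twist1 and 32 in Twist2. In the Tcf21 and Twist2 peaks the run borders a CA repeat.

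The number of peaks per gene ranged from 0 to 7. Twist2 and Tcf21 had 7 peaks each, Hand1 had 3, Twist1 had 2, Hand2 had 1, and Mesp1 and Mesp2 had 0. At least 1 peak was therefore present at 5 of the 7 genes, and 45.5% of the 22225 protein-coding gene names of GENCODE vM1 had one. At least 7 peaks were found at 14.5% of the genes in the list and at least 3 at 40.7%, and 39.8% had a single peak, as Hand2 did. The median over the 7 genes, those with 0 included, was 2 peaks, and it was also 2 over the genes in the list, which have at least 1 each. Of the 20 peaks, 11 lay upstream of the TSS and 9 downstream. The upstream share was 55%, beside 47.5% of all peaks. The median distance of the 20 peaks was 52.4 kb and their median width 447 bp, beside 58.8 kb and 467 bp in the whole list. Within 100 kb of the TSS lay 14 of the 20, and 62.5% of all peaks. By GENCODE, 14 of the 20 lay between genes, 5 in introns and 1, that of Hand2, over an exon. In the whole list 63.5% lay between genes, 32.5% in introns and 4.00% over exons.

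**Figure D1:**
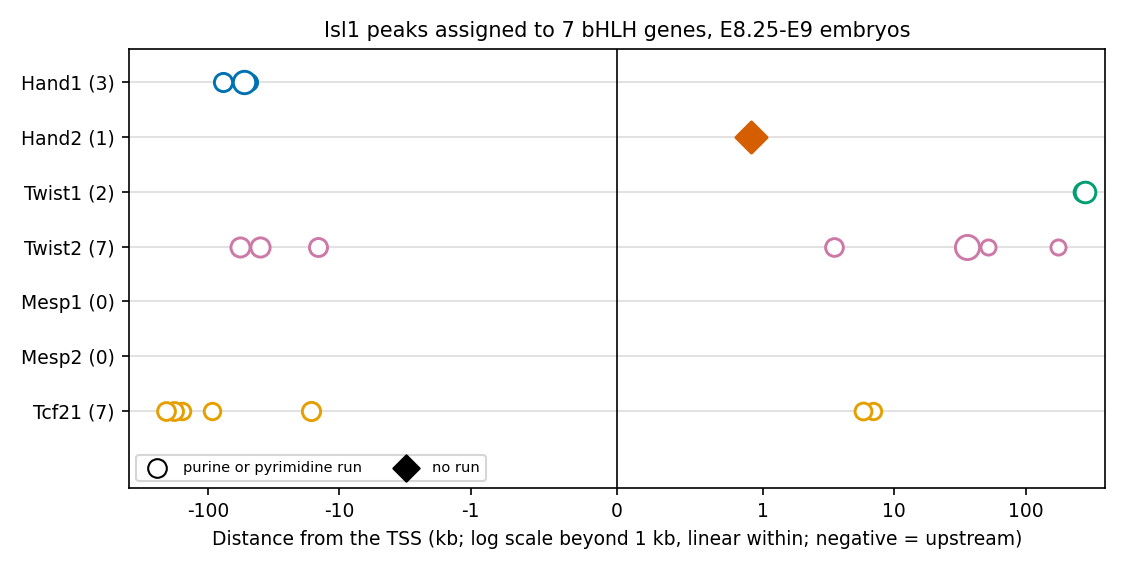
Signed distance from the TSS, in kb on an axis that is linear within 1 kb and logarithmic beyond, of each of the 20 Isl1 peaks, with 1 row per gene, the number of peaks in brackets and the area of a symbol proportional to the width of the peak. Open circles are peaks with a purine or pyrimidine run and the filled diamond is the peak without one. The Hand2 peak, 0.916 kb downstream, is the only one within 1 kb of a TSS, and the rows of Mesp1 and Mesp2 are empty.

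Hand2 carried the peak closest to a TSS. It spanned 672 bp at chr8:59800361-59801032, from 581 to 1252 bp downstream of the TSS, with its midpoint at 916 bp. It lay within exon 1 of Hand2, over 343 bp of the 5' untranslated region and 329 bp of coding sequence, and the midpoint fell 8 bp before the start codon. A peak this close was rare, since 2.58% of all peaks lay within 1 kb of a TSS and 9.37% of the genes in the list had such a peak. No other gene of the 7 had one, and widening the limit to 2 kb added none. With a limit of 5 kb, Twist2 was added. The peak was also wide: 11.7% of all peaks were wider, as were 2 of the other 19, namely the Hand1 peak of 694 bp and the Twist2 peak of 804 bp.

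The composition of the Hand2 peak set it apart from the other 19. Its GC content was 78.0%, while the other 19 lay between 38.0 and 59.3% with a median of 48.2%. A GC content over 70% was found at 1.39% of all peaks. The Hand2 peak held 87 CpG dinucleotides, and the ratio of observed to expected CpG was 0.856, against 0.00 to 0.592 at the other peaks. A higher ratio was found at 749 of all peaks (1.55%). Its longest run of purines or pyrimidines was 8 bases, whereas the other 19 had runs of 32 to 305 bases with a median of 122. The ranges did not overlap in GC content, CpG ratio or run. In width they overlapped, since the other 19 ranged from 316 to 804 bp. Windows of 200 bp placed 1 kb to either side of the Hand2 midpoint had 52% and 45% GC. The sequence between these windows and the peak was not measured. These are values of single peaks with no values per replicate, so no test was made.

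**Figure D2:**
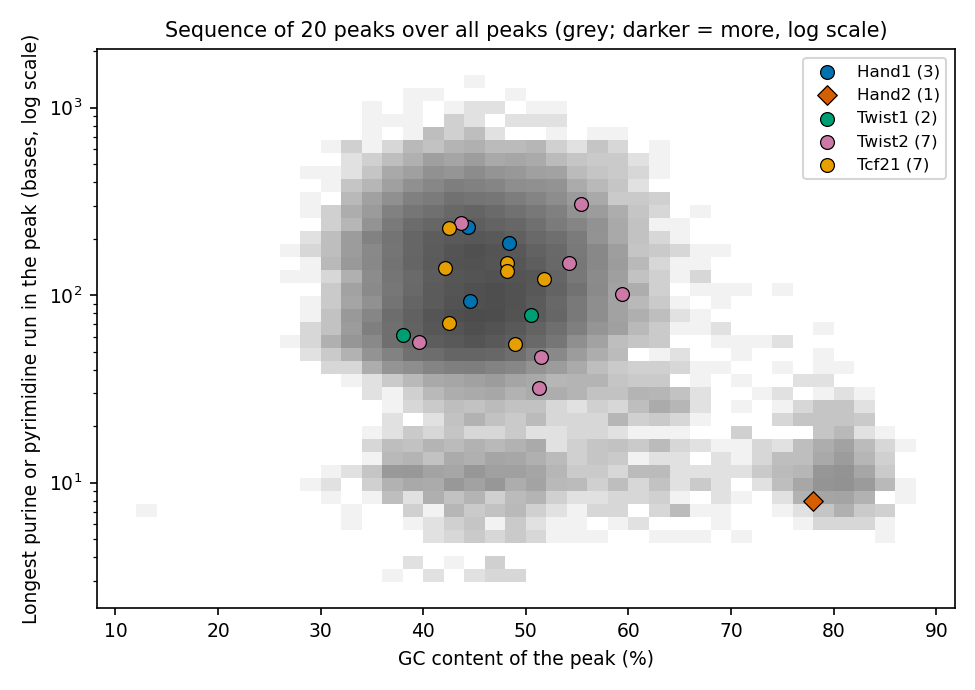
GC content of the peak in percent against the longest purine or pyrimidine run in it, in bases on a log scale. Grey shading counts all 48295 peaks, darker for more on a log scale, and coloured symbols are the 20 peaks of the 5 genes. The Hand2 peak (diamond) lies in the small GC-rich, short-run group at the lower right, at 78.0% and 8 bases, and the other 19 lie in the main group.

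The Hand2 peak was then set beside the promoter peaks of the whole list. A run of at least 25 bases within 100 bp of the midpoint was missing from 5.91% of all peaks, but from 616 of the 1245 peaks within 1 kb of a TSS (49.5%). These 616 had a median GC content of 80.0%, a median width of 531 bp and a median longest run of 11 bases. Their median ratio of observed to expected CpG was 1.01, above the 0.856 of the Hand2 peak. The Hand2 peak was higher in GC content than 24.0% of them and wider than 79.9%, and 5.68% of them had a longest run shorter than its 8 bases. Over all peaks it was higher in GC content than 98.9%, and 352 peaks (0.729%) had a longest run of 8 bases or fewer.

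The list also uses the start sites of noncoding RNAs, and the peaks around Hand2 were divided among several genes. The long noncoding RNA Uph (upperhand) starts 124 bp upstream of the Hand2 TSS, as read from the distances in the list. It is transcribed away from Hand2, and its transcription has been reported to be required for Hand2 expression in the heart. Uph received 13 peaks. Downstream, the noncoding RNA 5033428I22Rik starts 11.5 kb from the Hand2 TSS and received 5 peaks. Between these start sites, the stretch closer to Hand2 than to either was 5.79 kb long and held 1 peak. A peak outside that stretch could not be listed under Hand2. The distance, side and number of the peaks listed for Hand2 were therefore bounded by these neighbouring start sites. Within 100 kb of the Hand2 TSS there were 12 peaks, the most of the 7 genes: 1 was assigned to Hand2, 4 to Uph, 5 to 5033428I22Rik and 2 to Scrg1, the next protein-coding gene downstream.

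The Uph peaks reached from 18.0 to 352.1 kb upstream of the Hand2 TSS. The closest lay at chr8:59781577-59781995, and 4 of the 13 lay within 100 kb, at 18.0, 54.1, 77.6 and 90.5 kb. The 5033428I22Rik peaks lay 10.3 to 55.3 kb downstream, and the closest was at chr8:59809820-59810258. All 18 held a run, with longest runs of 52 to 430 bases and a median of 134, and their GC content was 31.9 to 52.7%. Within the 452.4 kb closer to Hand2 than to any other protein-coding TSS of GENCODE, 19 peaks were found, and the one in exon 1 was the only one without a run. This is 42.0 peaks per Mb, beside 18.2 per Mb over the chromosomes of the list. By the same measure Twist2 had 30.8 and Tcf21 22.7 peaks per Mb, and Hand1, Twist1, Mesp1 and Mesp2 had 0. The stretch was 222.8 kb long for Twist1, but 18.4 kb for Hand1, 33.8 kb for Mesp1 and 24.3 kb for Mesp2. Over the list 1 peak was found per 54.97 kb. A value of 0 in the shorter stretches of Hand1, Mesp1 and Mesp2 therefore does not show fewer peaks than elsewhere.

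**Figure D3:**
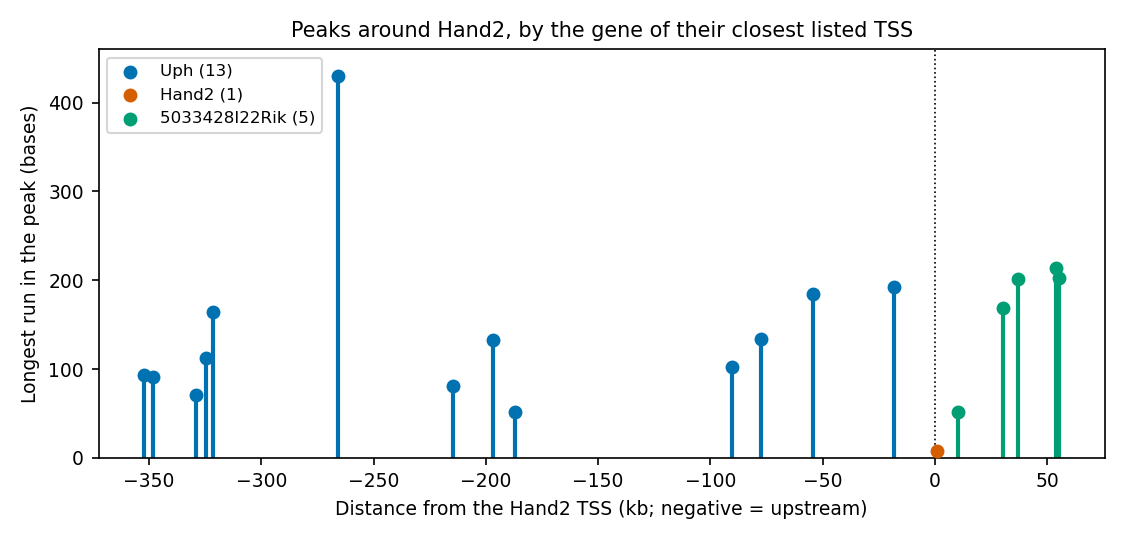
Longest purine or pyrimidine run, in bases, of the 19 peaks in the stretch closer to Hand2 than to any other protein-coding TSS, against the distance from the Hand2 TSS in kb (dotted line at 0). Colours give the gene to which the list assigned a peak: 13 peaks upstream went to Uph, 5 downstream to 5033428I22Rik and 1 to Hand2, whose run of 8 bases lies near the base of the plot.

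Hand1 had 3 peaks, all upstream and all between genes, at 48.4, 53.1 and 77.0 kb from the TSS on chromosome 11. The closest, at chr11:57693892-57694255, was the narrowest with 364 bp and held a pyrimidine run of 93 bases made of TC repeats. The middle peak was the widest with 694 bp, had a purine run of 231 bases and held 26 copies of GAGGA in a row. The farthest peak, 457 bp wide, had a purine run of 189 bases. No peak was assigned to Hand1 within 10 kb, where 15.9% of all peaks lay and 48.3% of the genes in the list had one. The nearest peak of any gene was on the other side, 34.7 kb downstream, and belonged to 2010001A14Rik. Both Hand genes thus had peaks within 100 kb of their TSS, 5 for Hand1 and 12 for Hand2, and only Hand2 had one within 10 kb.

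Twist2 had 7 peaks over 233.1 kb, 3 upstream and 4 downstream. The closest lay in the intron of Twist2, 3.47 kb downstream of the TSS, and was 435 bp wide. A further peak in the same intron, 35.9 kb downstream, was the widest of all 20 with 804 bp and had the longest run with 305 bases. Upstream, the peaks were at 14.5, 40.05 and 57.0 kb, and the last had the highest GC content of the 19 peaks with a run, 59.3%. The remaining peaks lay 51.7 kb downstream, past the end of the gene, and 176.1 kb downstream in an intron of Hdac4, which encodes a histone deacetylase. Both were 316 bp wide, the narrowest of the 20, and 6.17% of all peaks were narrower.

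Twist1 contrasted with Twist2 in number and distance. It had 2 peaks, 272.9 and 283.4 kb downstream of its TSS and 10.5 kb apart, and both lay in introns of Hdac9, the neighbouring histone deacetylase gene. They were 484 and 588 bp wide and held runs of 61 and 78 bases. Only 1 peak lay within 100 kb of the Twist1 TSS, 92.6 kb upstream, and it was assigned to Ferd3l, another bHLH gene. At Twist2, 6 peaks lay within 100 kb of the TSS and all 6 were assigned to it.

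Tcf21 had 7 peaks over 215.3 kb on chromosome 10, 5 upstream and 2 downstream. The downstream pair was the closest, with midpoints 5.83 and 6.84 kb from the TSS. The near edges of the 2 peaks lay 2.79 and 3.81 kb past the end of this gene of 2.85 kb, and 629 bp separated the peaks. They held pyrimidine runs of 55 and 122 bases, the first of 27 CT units and the second of 24 copies of TCTCC. The upstream peaks were at 16.6, 93.4, 157.0, 181.2 and 208.4 kb, with runs of 149, 139, 135, 228 and 71 bases. All 7 peaks were between genes, and their widths, 371 to 461 bp, were all below the 467 bp median of the list. A peak 74.97 kb downstream of the Tcf21 TSS, assigned to Tbpl1, was without a run, with a longest one of 15 bases, and it was the only other peak without a run within 100 kb of any of the 7 TSSs besides that of Hand2.

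Mesp1 and Mesp2, whose TSSs lie 16.9 kb apart on chromosome 7, had no row by symbol and none by RefSeq accession. Of the peaks around them, 3 lay within 100 kb of each TSS, the same 3 for both genes. One was assigned to Plin1 and 2 to Anpep, and the one nearest to both Mesp genes was a promoter peak of Anpep, 678 bp upstream of the Anpep TSS. The Plin1 peak was likewise within 1 kb of its own TSS. The Anpep peak, at chr7:86987678-86988155, was 478 bp wide with a run of 70 bases, and it lay 32.3 kb from the Mesp2 TSS and 49.2 kb from that of Mesp1. The stretches closest to the Mesp start sites among protein-coding genes were 33.8 kb long for Mesp1 and 24.3 kb for Mesp2. Those of the other genes were 18.4 kb for Hand1, which was listed with 3 peaks outside that stretch, 195.0 kb for Twist2, 222.8 kb for Twist1, 309.0 kb for Tcf21 and 452.4 kb for Hand2. Over the whole list 1 peak was found per 54.97 kb, and the part of gene spacing in the empty rows was not tested. Within 1 Mb of the TSS, each of the 7 genes had between 38 and 61 peaks.

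**Figure D4:**
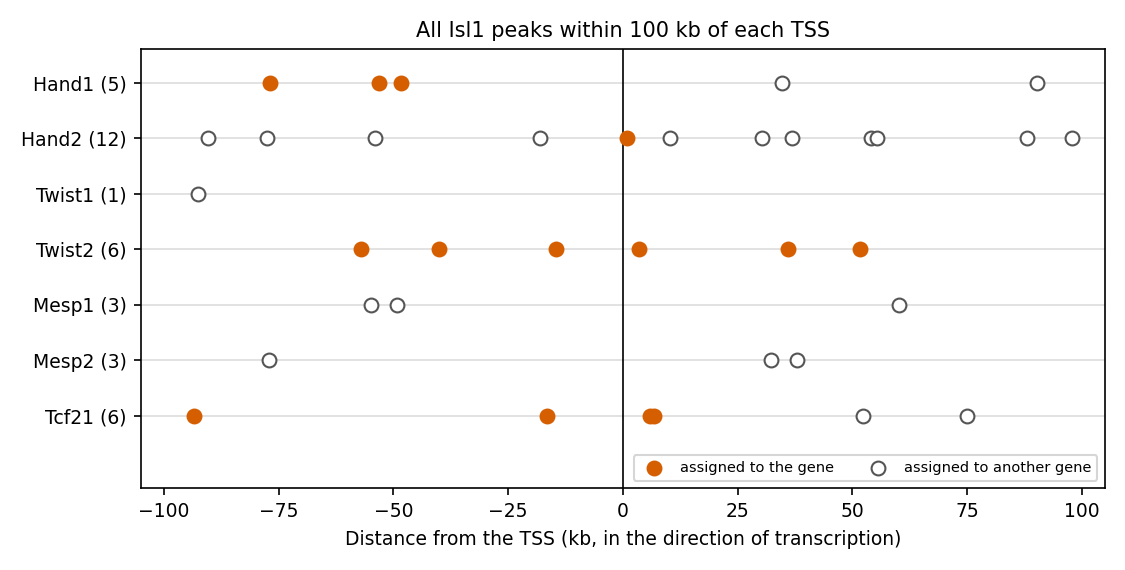
All Isl1 peaks within 100 kb of the TSS of each gene, in kb in the direction of transcription, with the number of peaks in brackets. Filled circles were assigned to the gene itself and open circles to another gene. Of the 12 peaks around Hand2, 11 are open, whereas all 6 around Twist2 are filled, and the windows of Mesp1 and Mesp2 overlap and show the same 3 peaks.

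Whether a peak counts for a gene rested on the set of start sites. With peaks given to the nearest start site of a GENCODE protein-coding gene, Hand2 rose from 1 to 19 peaks, Hand1 fell from 3 to 0 and Twist1 from 2 to 0. Twist2 had 6 and Tcf21 kept all 7. The 3 Hand1 peaks went to the predicted gene Gm11003, the 2 Twist1 peaks to Hdac9 and the farthest Twist2 peak to Hdac4. Mesp1 and Mesp2 had 0 under each assignment.

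Runs and motifs were then compared over the 20 peaks. A run of at least 25 bases lay near the midpoint of 19 of them, and 1, that of Hand2, had none (5.00%, beside 5.91% of all peaks). The share was thus near that of the list. Over the whole peak, the longest run of these 19 was of pyrimidines in 11 and of purines in 8 on the plus strand. In windows 1 kb away, 4 of 40 held a run, and 3 of those 4 were windows of the closely spaced Tcf21 pair. Each peak of that pair lay under a window of the other. The runs of 55 and 122 bases found there were thus the peaks' own. Each of the 19 peaks with a run contained a tandem repeat of at least 7 copies, and the unit of the longest was CT or GA, in either phase, in 7. The centre of the longest run lay within 50 bp of the midpoint in 13 of the 19. The flank, repeat and centre counts are given for the 20 peaks only, with no share over all peaks beside them. They therefore do not show a trait particular to these genes.

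Short motifs were counted on both strands within 100 bp of the midpoint. The TAAT core, to which homeodomain proteins such as Isl1 bind, was found at 1 of the 20 peaks, the closest Twist1 peak, and at 35.3% of all peaks. The palindrome TAATTA, which also counts as TAAT, was at 0 of 20 and at 1.98% of all. The E-box CANNTG, the motif of bHLH proteins themselves, was at 7 of 20 and at 30.0% of all, and GATA at 4 of 20 and at 34.0% of all. Over the whole width of the peaks TAAT was present at 14 of the 20, beside 82.8% of all, and TAATTA at 3, beside 4348 of all 48295. CANNTG was at 16, beside 76.8%, and GATA at 11, beside 78.7%. The Hand2 peak held 1 TAAT and 1 CANNTG over its 672 bp, both outside the central window, and no GATA. None of these motifs can lie within a run, because each mixes purines and pyrimidines. The median longest run was 112 bases at the 20 peaks and 108 bases over all peaks. The part of the runs in the motif counts was not tested. A motif is a description of the letters present and not of binding.

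Of 17 further bHLH genes, chosen as partners, inhibitors and relatives of the 7, 13 had a peak, with 41 peaks in all. Of the protein-coding gene names of GENCODE, 45.5% had one. Of the 13 with a peak, none had a promoter peak (within 1 kb), and 7 had one within 10 kb. The shares were 9.37% and 48.3% of the genes in the list, which also have at least 1 peak each. Among the E proteins, Tcf4 had 7 peaks with the closest 2.87 kb downstream and Tcf12 had 2, while Tcf3 had 0. All 4 Id genes had peaks, 13 in all, and the closest lay 4.48 kb upstream of Id1, 6.13 kb downstream of Id2 and 9.695 kb downstream of Id3. Of the 10 relatives, 7 had peaks, and those within 10 kb were Tcf15, a somite factor, at 3.82 kb, and the neuronal genes Nhlh1 at 5.455 kb and Nhlh2 at 6.59 kb, all upstream. Scx, Tcf24 and Msgn1 had 0 peaks. Without a run were 2 of the 41 peaks (4.88%, near the 5.91% of all peaks), 1 of Tcf4 and 1 of Msc.

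The T-box genes and the Gata genes with their Fog cofactors, other regulators of heart development, were counted in the same way. Of 14 T-box genes, 11 had a peak, with 39 peaks in all, and of 8 Gata and Fog genes, 5 had one, with 35 peaks. The share among protein-coding gene names of GENCODE was 45.5%. The median per gene was 1.5 and 2 peaks, and 2 for the 7 bHLH genes. In each list 1 gene had a promoter peak, less than 1 kb from its start, Tbx2 among the T-box genes and Zfpm1 among the others, and both of these promoter peaks were without a run, as at Hand2. Peaks without a run numbered 6 of 39 (15.4%) at the T-box genes and 3 of 35 (8.57%) at the Gata and Fog genes. They numbered 1 of 20 (5.00%) at the 7 bHLH genes and were 5.91% of all peaks. These differences were not tested, since all counts come from a single list.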

How the data were processed

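Isl1 ChIP-Seq of pooled E8.25-E9 cardiogenic regions was analysed from 1 deposited peak list, and the input was not analysed here. The authors aligned the reads to mm9 using bowtie2. Duplicates were taken out with Picard (1.136, per the submitters' processing notes), and MACS was run with a preset p-value limit. Blacklisted regions were dropped, and every peak received the gene whose TSS was nearest, noncoding genes included. A peak nearer to another start site is therefore not listed under a given gene. The deposited list holds positions, and distances in bp, with no height. The depth is unknown, so no precision could be stated. Whether the list is an intersection of replicates is not given in the sources used here.

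A repeated header line was skipped, and coordinates were read as counted from 1. The start sites implied by the distances were those of GENCODE vM1 for all 5 genes with peaks. Over the list this held for 24496 of the 39067 rows checked (62.7%), so the start sites of the list are not all those of GENCODE. The GENCODE assembly, NCBIM37, is mm9. Runs of at least 25 bases and motifs were read within 100 bp of midpoints, and an exon call needed 1 bp. The 7 genes, the companion lists and the definition of a run were chosen with earlier results of these data known. Named were all 7 genes, companion genes with a peak within 10 kb or with none, and neighbours given a peak within 100 kb. Tcf12, Msc, Tbx2, Zfpm1, Gm11003 and the Hdac genes were named after their values were seen. The sequence of 1 peak is not reported here. No test was made. Only the functions that find runs and count the TAAT motif were tested on simulated data. Python 3.11.15, numpy 2.4.6 and pandas 2.3.3 were used.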

Additional observations from a re-analysis of the deposited data

How the results depend on the processing

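Of 23 alternative counts, 7 stayed within 1.5 times of the reported count and 16 did not. The 5 genes with a peak became 3 with peaks within 10 kb, and 3 with the closest TSS of any GENCODE gene or of a protein-coding one. The 20 peaks became 4 within 10 kb, 7 wider than the median, 33 when all peaks within 100 kb of a TSS were counted, 32 with the closest protein-coding TSS and 33 with the peaks of Uph added. The 11 upstream peaks became 3 among the wider peaks. With runs of at least 40 bases, 2 peaks had none, and TAAT over the whole peak was at 14 in place of 1. The genes with a promoter peak rose from 1 to 2 at 5 kb. The single Hand2 peak became 14 with any GENCODE TSS or with Uph, 19 with protein-coding TSSs and 12 within 100 kb. The alternatives by protein-coding TSS and by Uph, and those for Hand2, were chosen after seeing the data. Each of these alternatives counts by its construction other peaks, other start sites, more sequence of the same peaks or another length of run. No paired analysis was possible because the peaks come from 1 ChIP sample. Height and depth are unknown, so no stricter peak threshold than width could be set, and a missing peak at Mesp1 or Mesp2 has no detection limit.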
